A study of Mus musculus with 6 samples.

Results

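The ATF4-CHOP axis is the set of transcription factors and feedback genes through which the integrated stress response reaches the nucleus. The genes described here are its 10 core genes, taken from the deposited gene table by symbol: Atf4, Atf5, Atf3, Ddit3 (which encodes CHOP), Cebpb, Cebpg, Trib3, Nupr1, Ppp1r15a (which encodes GADD34) and Chac1. They are 10 of the 55487 genes in the table, all are protein coding, and all 10 were among the 14663 genes that passed a filter on low counts. The 10 symbols cover 11 identifiers, because Ddit3 is listed under 2. The second, ENSMUSG00000116429, had 1 count in each of the 6 libraries, and the other, ENSMUSG00000025408, was used.

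RNA was sequenced from cultured RM-1 cells, a mouse prostate cancer line. One group carried a lentivirus that overexpresses Bhlhe22, a basic helix-loop-helix factor known from neurons, and the other a lentivirus with the blank vector. They are called Bhlhe22 and vector cells, with 3 libraries each. Both groups had therefore been infected with a lentivirus. The sources used here do not give the promoter of the transgene, the time after infection or whether clones or pools of cells were used.

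Cells under stress phosphorylate the translation factor eIF2 through any of several kinases, among them PERK for the endoplasmic reticulum and GCN2 for missing amino acids. Protein synthesis then slows, while the ATF4 mRNA is translated better through its upstream reading frames, so that ATF4 protein can rise with little change in its mRNA. ATF4 pairs with C/EBP proteins on composite C/EBP-ATF elements, raises genes for amino acid supply and further factors such as ATF3, ATF5 and CHOP, and is held back by feedback products such as TRIB3 and GADD34.

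Levels are given as CPM, the count of a gene relative to the TMM-scaled size of its library. Counts per library summed to 17950347 to 21223227 in vector cells and 15464709 to 25129552 in Bhlhe22 cells. Bhlhe22 itself had 0 counts in every vector library, which allows up to 0.140 to 0.166 CPM (a level of 3 counts), and 8706, 14785 and 17995 counts in Bhlhe22 replicates 1, 2 and 3. On the second principal component Bhlhe22 replicate 1 stood apart, at 37.3 against -19.2 and -26.1 for the other Bhlhe22 libraries. Of the genes checked as markers of the prostate line, Krt8 and Krt18 were at 515 CPM or more in every library, Vim was at 1248 or more, and the basal keratin Krt5 had 0 counts throughout. The summed level of all genes on that list was 3052 to 3103 CPM in vector and 2417 to 2765 in Bhlhe22 cells, and that of 6 endothelial and stromal markers 65.4 to 67.1 and 72.8 to 98.2. Of the leukocyte markers, Cd3e, Itgam, Adgre1 and Lyz2 were at 0 in all libraries, Ptprc did not exceed 0.197 CPM, and the sum, nearly all of it Cd68, was 37.8 to 42.6 CPM in vector and 43.6 to 52.0 in Bhlhe22 cells. The part of these marker differences in the results below was not tested.

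The 3 genes of the axis whose log2 fold change exceeded 1, Ppp1r15a, Atf3 and Ddit3, are shown first. The 250 bases before their start in RefSeq let matches to motifs known for ATF4, CHOP and related factors be seen beside the values. They are written 5′ to 3′ on the strand of the gene. Capitals mark a match to the composite C/EBP-ATF element TGATGNAA or to the cAMP response element TGACGTCA. Both strands were searched, so that TTGCATCA is a match to the first motif on the other strand.

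Atf3, GRCm38.p6, chr1:191183334-191183583, minus strand: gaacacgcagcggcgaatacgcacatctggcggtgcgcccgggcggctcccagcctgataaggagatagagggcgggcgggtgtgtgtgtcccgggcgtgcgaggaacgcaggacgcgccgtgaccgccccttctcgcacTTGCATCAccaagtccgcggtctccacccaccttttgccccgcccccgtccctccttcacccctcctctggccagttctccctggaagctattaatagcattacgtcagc
Ddit3, GRCm38.p6, chr10:127290543-127290792, plus strand: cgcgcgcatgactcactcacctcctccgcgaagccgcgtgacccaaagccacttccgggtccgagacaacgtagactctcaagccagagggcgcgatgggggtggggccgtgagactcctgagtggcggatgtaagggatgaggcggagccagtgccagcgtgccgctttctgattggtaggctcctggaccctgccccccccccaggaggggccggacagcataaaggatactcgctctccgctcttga
Ppp1r15a, GRCm38.p6, chr7:45526269-45526518, minus strand: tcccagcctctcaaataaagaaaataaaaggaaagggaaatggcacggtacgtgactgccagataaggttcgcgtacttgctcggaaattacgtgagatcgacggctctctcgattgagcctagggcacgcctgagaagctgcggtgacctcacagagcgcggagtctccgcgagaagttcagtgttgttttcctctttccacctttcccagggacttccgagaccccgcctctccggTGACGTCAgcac

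In windows that reach from 250 bases before to 50 bases after the start, all 10 genes had an entry. Of these, 4 held TGATGNAA, against 1304 of all 32851 windows (3.97%). The stricter form TGATGCAA, whose matches are all matches to TGATGNAA as well, was in 3 of them and in 294 windows (0.895%). TGACGTCA, a palindrome that overlaps neither of the other motifs in these genes, was in Ppp1r15a alone and in 588 windows (1.79%). The matches in the other 3 genes are given with 11 bases on each side, followed by those in 3 genes outside the 10 that are described with the target lists.

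Chac1, GRCm38.p6, chr2:119351038-119351067, plus strand: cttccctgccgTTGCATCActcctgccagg
Nupr1, GRCm38.p6, chr7:126625562-126625591, minus strand: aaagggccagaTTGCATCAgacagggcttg
Trib3, GRCm38.p6, chr2:152344028-152344057, minus strand: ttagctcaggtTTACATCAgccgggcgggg
Fgf21, GRCm38.p6, chr7:45615611-45615640, minus strand: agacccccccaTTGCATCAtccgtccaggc
Herpud1, GRCm38.p6, chr8:94386306-94386335, plus strand: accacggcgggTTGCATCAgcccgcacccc
Avil, GRCm38.p6, chr10:127000681-127000710, plus strand: gaatgtggttaTGATGCAAacacaagcaaa

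Counted with the first transcribed base as 1 and the base before it as -1, the matches in Atf3 and Nupr1 began at the same place, -110, and ended at -103. That in Chac1 lay at -193 to -186, and that in Trib3 lay after the start, at 15 to 22. The palindrome of Ppp1r15a covered -12 to -5. A match describes letters in a window and not a bound site, and the window of Ddit3 held none of the 3 motifs.

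Across the axis, 9 of the 10 genes were higher in Bhlhe22 than in vector cells and 0 were lower, by edgeR's quasi-likelihood test at an adjusted p of 0.05. Over all 14663 genes tested 10.4% were called higher and 9.28% lower, 19.6% in all. No gene of the axis was lower at an unadjusted p under 0.05 either, nor with DESeq2 or limma-voom, and all 10 log2 fold changes were positive. Their median was 0.57, against 0.0098 for all genes tested. In 9 of the 10 genes the 3 libraries of one group did not overlap with those of the other, as in 40.8% of all genes. In bulk RNA, more RNA per cell cannot be told apart from more cells that express a gene.

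**Figure D1:**
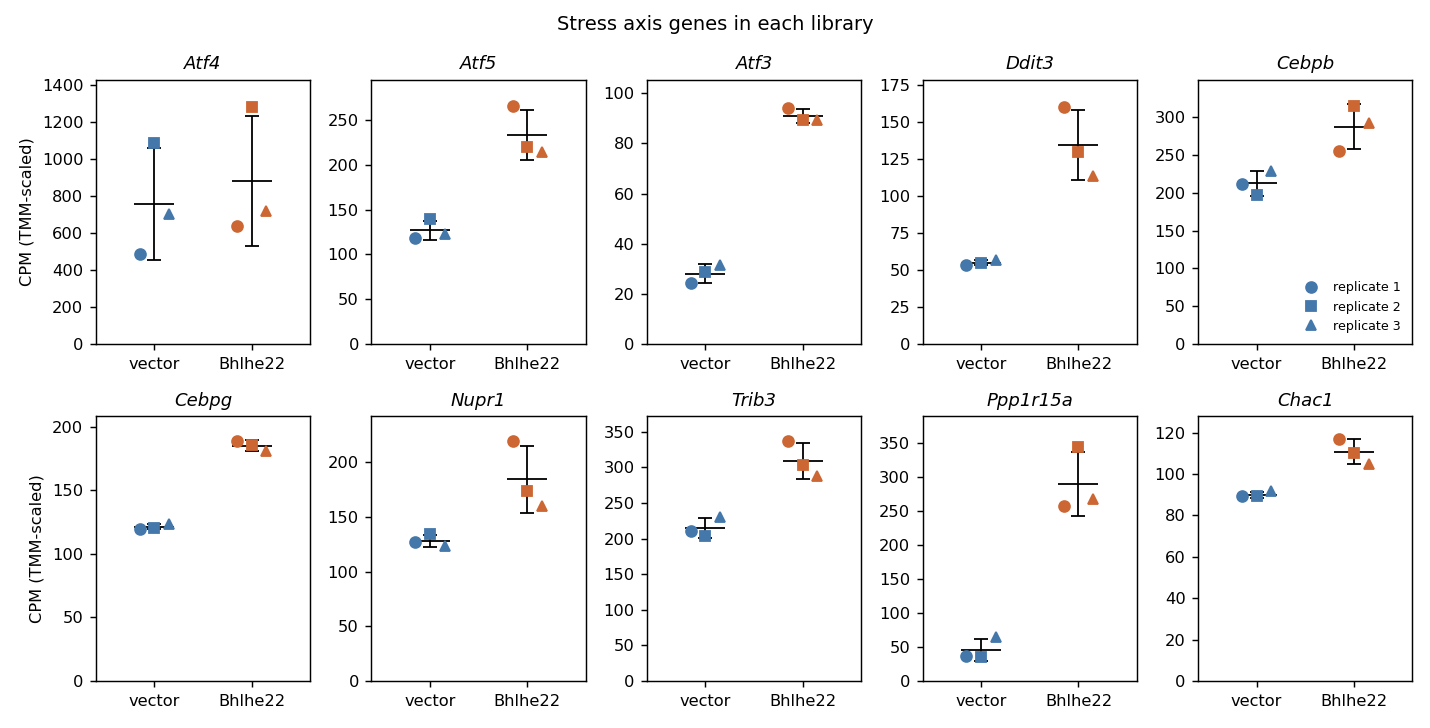
Level of each of the 10 genes in CPM (y axis, from 0) in the 3 vector and the 3 Bhlhe22 libraries; symbols give the replicate, lines the mean and error bars the SD. All genes but Atf4 have their Bhlhe22 libraries above their vector libraries, and for Atf4 replicate 2 is the highest library of both groups.

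Atf4 (ENSMUSG00000042406, chr15:80255184-80257541, plus strand, GRCm38), which encodes the factor at the head of the axis, was the only one of the 10 that did not pass the test. Its level was 490, 1087 and 702 CPM in vector replicates 1, 2 and 3 and 637, 1283 and 720 CPM in Bhlhe22 replicates 1, 2 and 3. Replicate 2 was the highest in both groups and the groups overlapped. The means were 759 ± 303 and 880 ± 351 CPM (SD, n = 3), and the log2 fold change was 0.21 with an SE of 0.36 (edgeR adjusted p = 0.73). Its 95% interval, -0.63 to 1.06, runs from a 0.644-fold to a 2.08-fold level, so that changes of the size seen in most of the other genes lie within it. A fit with a replicate block gave nearly the same log2 fold change, 0.22, with a smaller SE of 0.097 (edgeR adjusted p = 0.19). Over all genes, same-numbered libraries did not deviate alike from the means of their groups, and a pairing that affects part of the genes was not tested. The sign depended on single libraries: leaving out vector replicate 1 gave a log2 fold change of -0.024, leaving out Bhlhe22 replicate 2 gave -0.16, and leaving out vector replicate 2 gave 0.56.

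Atf5 (ENSMUSG00000038539, chr7:44812256-44816658, minus strand), an ATF4 target whose own mRNA is also under translational control and whose product is known for the mitochondrial stress response, was 1.84-fold higher. Vector replicates 1 to 3 had 119, 139 and 122 CPM, and Bhlhe22 replicates 1 to 3 had 265, 220 and 214 CPM. Every Bhlhe22 library stood above every vector library, and Bhlhe22 replicate 1 was the highest. Means were 127 ± 10.9 and 233 ± 27.9 CPM (SD, n = 3), with a log2 fold change of 0.88, an SE of 0.11 and an edgeR adjusted p of 0.0020. Exons of Nup62 and Il4i1 on the other strand cover 4.11% of its exon bases, and the sources used here do not give the strandedness of the counting. Nup62 had 848, 436 and 634 counts in vector and 531, 365 and 396 in Bhlhe22 libraries, against 2144 to 2869 and 4039 to 5379 for Atf5.

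Atf3 (ENSMUSG00000026628, chr1:191170296-191218039, minus strand), a stress-induced factor that represses or activates depending on its partner, was 3.23-fold higher (95% interval 2.71 to 3.85). Its level was 24.2, 28.7 and 31.4 CPM in vector and 94.1, 89.2 and 89.2 CPM in Bhlhe22 libraries. The lowest Bhlhe22 library was far above the highest vector library, and the Bhlhe22 libraries lay close together. Means were 28.1 ± 3.65 and 90.8 ± 2.82 CPM (SD, n = 3), and the log2 fold change of 1.69 had an SE of 0.11 and an edgeR adjusted p of 0.00017. The promoter window printed for Atf3 belongs to a RefSeq start inside the gene, not to the far end of its annotated span. The same holds for the window of Nupr1 and for a further window of Atf5.

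Ddit3 (ENSMUSG00000025408, chr10:127290774-127296288, plus strand) encodes CHOP, a C/EBP family factor that dimerises with other C/EBP and ATF proteins and is linked to death under prolonged stress. It was 2.44-fold higher, and the 95% interval of its log2 fold change was 0.99 to 1.58. Vector libraries had 53.5, 54.9 and 57.3 CPM and Bhlhe22 libraries 160, 130 and 114 CPM. Vector libraries were nearly alike, while Bhlhe22 libraries differed among themselves, with replicate 1 highest, and all 3 lay far above the vector libraries. Means were 55.2 ± 1.90 and 135 ± 23.5 CPM (SD, n = 3), with a log2 fold change of 1.29, an SE of 0.13 and an edgeR adjusted p of 0.00088. The second Ddit3 identifier overlaps 6.13% of its exon bases on the same strand, and Mars and Gm4189 overlap 4.73% on the other. Mars had more counts than Ddit3, with 4287, 4993 and 5236 in vector and 4040, 5500 and 6691 in Bhlhe22 libraries. Ddit3 had 966 to 1224 and 2439 to 2862. The part of Mars reads in the counts of Ddit3 was not tested.

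Cebpb (ENSMUSG00000056501, chr2:167688915-167690418, plus strand), whose product is a dimer partner of both ATF4 and CHOP, was 1.35-fold higher. The vector libraries held 211, 197 and 229 CPM and the Bhlhe22 libraries 255, 314 and 292 CPM. The groups did not overlap, with vector replicate 3 and Bhlhe22 replicate 1 nearest to each other. Means were 212 ± 16.2 and 287 ± 29.8 CPM (SD, n = 3), and the log2 fold change was 0.44 with an SE of 0.099 and an edgeR adjusted p of 0.022. Cebpb shared the most sequence with a neighbour among the 10 genes: exons of Tmem189 on the other strand cover 20.7% of its exon bases. Tmem189 had 412, 507 and 496 counts in vector and 389, 691 and 500 in Bhlhe22 libraries, against 3805 to 4897 and 3887 to 7338 for Cebpb.

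Cebpg (ENSMUSG00000056216, chr7:35046422-35056573, minus strand) encodes a short C/EBP protein that lacks an activation domain of its own and pairs with ATF4 at amino acid genes. It was 1.53-fold higher, with 120, 121 and 123 CPM in vector and 189, 185 and 181 CPM in Bhlhe22 libraries. Both groups were tight and far from overlapping. Means were 121 ± 1.83 and 185 ± 4.23 CPM (SD, n = 3), and the log2 fold change was 0.61 with an SE of 0.061 (edgeR adjusted p = 0.00092), the smallest SE of the 10.

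Among the cofactors, Trib3 (ENSMUSG00000032715, chr2:152337422-152344032, minus strand) encodes a pseudokinase that binds ATF4 and CHOP and restrains them. It was 1.44-fold higher, with 210, 203 and 230 CPM in vector and 337, 303 and 287 CPM in Bhlhe22 libraries. The groups did not overlap, and Bhlhe22 replicate 1 was again highest. Means were 215 ± 13.9 and 309 ± 25.6 CPM (SD, n = 3), with a log2 fold change of 0.53, an SE of 0.087 and an edgeR adjusted p of 0.0067.

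Nupr1 (ENSMUSG00000030717, chr7:126623249-126630861, minus strand), which encodes a small stress-induced chromatin protein that works with ATF4, was 1.44-fold higher. Levels were 127, 134 and 123 CPM in vector and 219, 173 and 160 CPM in Bhlhe22 libraries. The libraries of the groups did not overlap, and Bhlhe22 replicate 1 stood above the other Bhlhe22 libraries. Means were 128 ± 5.59 and 184 ± 30.9 CPM (SD, n = 3), and the log2 fold change of 0.52 had an SE of 0.12 and an edgeR adjusted p of 0.024.

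Among the feedback effectors, Ppp1r15a (ENSMUSG00000040435, chr7:45522916-45526268, minus strand) changed most of the 10, by 6.37-fold (95% interval 4.18 to 9.70). Its product GADD34 brings protein phosphatase 1 to phosphorylated eIF2 and so ends the block of translation. Vector libraries had 36.3, 35.8 and 64.5 CPM, and Bhlhe22 libraries had 258, 345 and 268 CPM. Vector replicate 3 was well above the other vector libraries and still far below every Bhlhe22 library. Means were 45.5 ± 16.4 and 290 ± 47.7 CPM (SD, n = 3), with a log2 fold change of 2.67, an SE of 0.26 and an edgeR adjusted p of 0.00089.

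Chac1 (ENSMUSG00000027313, chr2:119351229-119354381, plus strand), which encodes an enzyme that breaks down glutathione, changed least among the 9 genes that rose, by 1.23-fold. Its level was 89.2, 89.3 and 91.7 CPM in vector and 117, 110 and 105 CPM in Bhlhe22 libraries. The difference was small but larger than the spread within each group. Means were 90.1 ± 1.43 and 111 ± 5.97 CPM (SD, n = 3), and the log2 fold change of 0.30 had an SE of 0.068 and an edgeR adjusted p of 0.023.

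The 10 genes therefore fell over a wide range of fold changes, with Ppp1r15a, Atf3, Ddit3 and Atf5 at the upper end. These 4 passed the edgeR test in each of the 6 fits that left out a single library, and so did Cebpg and Trib3. Cebpb, Nupr1 and Chac1 did so in 2 of the 6 fits each, with the largest edgeR adjusted p at 0.095, 0.097 and 0.10. The count of genes that rose was 6 when vector replicate 1, vector replicate 2 or Bhlhe22 replicate 2 was omitted, and 9 when it was Bhlhe22 replicate 1, the library that stood apart on the second component. The number called higher over all genes was 715, 781 and 908 in the first 3 of these fits and 2345 without Bhlhe22 replicate 1. With both replicate 2 libraries left out, a fit chosen after seeing where Atf4 was high, the count was 4, again Ppp1r15a, Atf3, Ddit3 and Atf5. That fit called 246 of 14745 genes higher and 178 lower, against 1520 and 1361 with all libraries. In it Cebpg, Trib3, Nupr1, Cebpb and Chac1 did not pass, at log2 fold changes of 0.60, 0.50, 0.60, 0.32 and 0.30. Bhlhe22 replicate 1 was the highest Bhlhe22 library for 7 of the 10 genes, all but Atf4, Cebpb and Ppp1r15a, and for 41.7% of all genes tested.

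**Figure D2:**
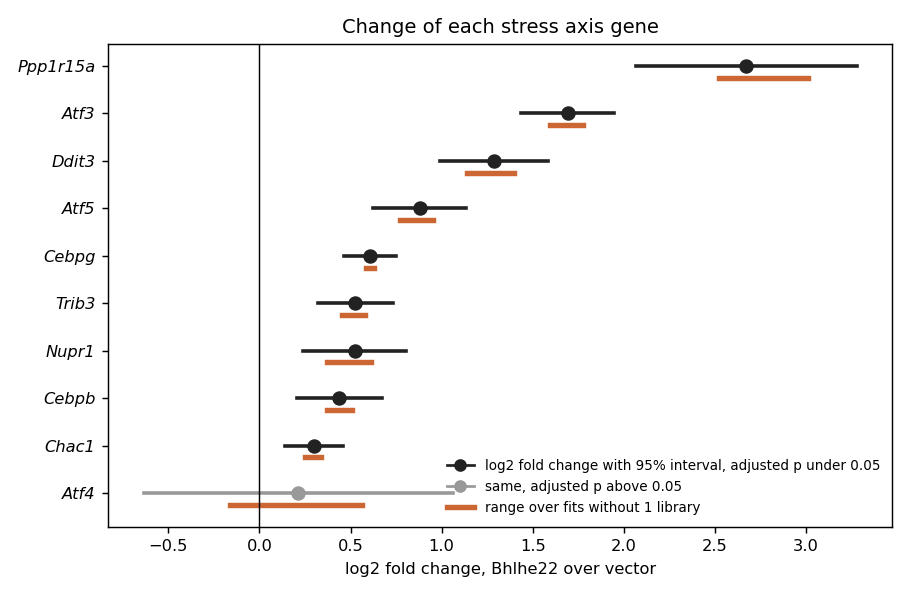
Log2 fold change of each gene, Bhlhe22 over vector (x axis), as a point with its 95% interval, and in orange the range over 6 fits that each left out 1 library. Ppp1r15a at 2.67 and Atf3 at 1.69 lie highest, and Atf4 is the only gene whose interval and range include 0.

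Levels of different genes were compared as CPM per kilobase of merged exons, here on library totals. In vector cells the order from high to low was Atf4 (324 ± 129), Cebpb (142 ± 10.8), Trib3 (102 ± 6.60), Atf5 (64.1 ± 5.57), Chac1 (55.4 ± 0.908), Nupr1 (51.4 ± 2.26), Ddit3 (32.4 ± 1.14), Cebpg (21.7 ± 0.342), Ppp1r15a (15.6 ± 5.63) and Atf3 (13.1 ± 1.72), each as mean and SD of n = 3. Neighbours in this order overlapped only at its lower end, for Cebpg with Ppp1r15a and for Ppp1r15a with Atf3. Of the 10 genes, the axis in vector cells thus had Atf4 mRNA at the top, and the later factors CHOP and ATF3 and the phosphatase subunit GADD34 near the bottom.

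In Bhlhe22 cells Atf4 (370 ± 148), Cebpb (189 ± 20.4), Trib3 (144 ± 10.9) and Atf5 (116 ± 13.1) kept the upper places. Ppp1r15a followed in place 5 with 98.0 ± 16.1, up from place 9, then Ddit3 (77.9 ± 13), Nupr1 (72.6 ± 11.6), Chac1 (67.1 ± 3.12), Atf3 (41.8 ± 1.05) and Cebpg (32.6 ± 0.499). From Atf5 through Chac1 each gene overlapped with the next, while Atf5 did not overlap with Ddit3, Nupr1 or Chac1. These places depend on the length used. By the FPKM deposited by the authors, Atf4 and Cebpb overlapped at the top in both groups, at 187 ± 74.6 and 142 ± 10.8 FPKM in vector and 213 ± 85.1 and 189 ± 20.4 FPKM in Bhlhe22 cells (SD, n = 3). In these deposited values, whose lengths for most genes count overlapping exons of different transcripts more than once, Ppp1r15a was last in vector cells, at 8.29 ± 2.99 FPKM, and place 7 in Bhlhe22 cells, at 52.0 ± 8.55 FPKM (SD, n = 3). The length behind its FPKM was 1.88 times that of its merged exons, while for Cebpb and Chac1 both were the same.

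**Figure D3:**
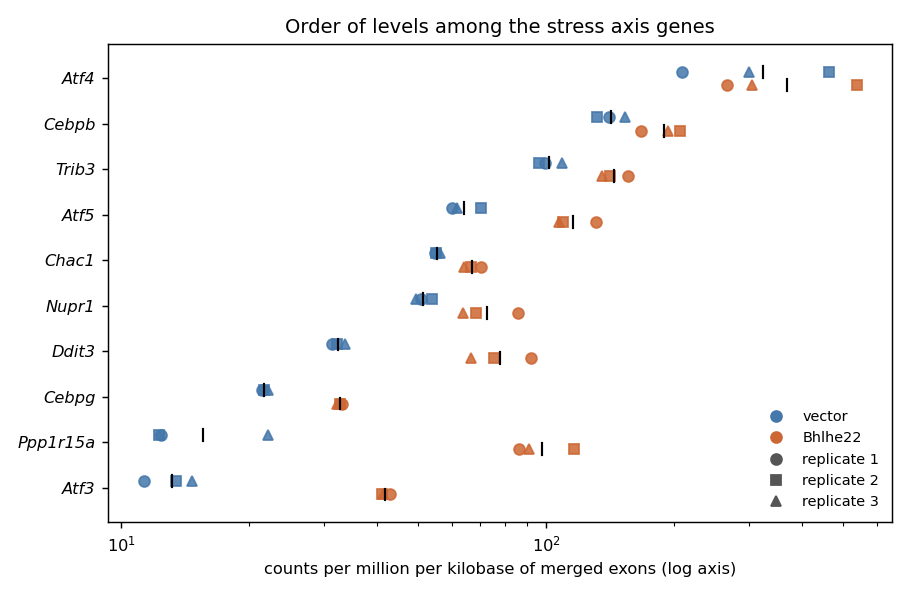
CPM per kilobase of merged exons (x axis, log scale) for each gene in each library, in order of the vector mean; short black lines are group means. Atf4 lies highest and most spread, and Ppp1r15a moves from between 12.3 and 22.1 in vector to between 86.4 and 116 in Bhlhe22 libraries.

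Upstream of the axis, 21 genes were measured, mainly for eIF2, its exchange factor eIF2B, its kinases and their regulators and its phosphatases. The list, called eIF2 genes below, also holds Eif2a and Eif2d, whose products are not subunits of eIF2. Of the 21 genes 3 rose and 1 fell, while 17 passed in neither direction, and the median log2 fold change was -0.0037. Over all genes tested 10.4% rose and 9.28% fell, so the counts of this list lie near the background. Eif2s2, which encodes the beta subunit of eIF2, went from 313 ± 9.34 to 437 ± 40.8 CPM (SD, n = 3; log2 fold change 0.48, edgeR adjusted p = 0.0082). The eIF2B subunit genes Eif2b3 and Eif2b2 rose by log2 fold changes of 0.34 and 0.42 (edgeR adjusted p = 0.026 and 0.033). Impact, whose product inhibits GCN2 activation, fell by 0.35 on the log2 scale (edgeR adjusted p = 0.039). None of the 4 kinase genes passed: the log2 fold changes were 0.055 for Eif2ak1 (HRI), -0.27 for Eif2ak2 (PKR), 0.067 for Eif2ak3 (PERK) and -0.20 for Eif2ak4 (GCN2), with edgeR adjusted p of 0.66, 0.085, 0.81 and 0.26. Ppp1r15b, the constitutive counterpart of Ppp1r15a, had 242 CPM in vector and 275 CPM in Bhlhe22 cells (log2 fold change 0.18, edgeR adjusted p = 0.27). Of the 4 genes called here, only Eif2s2 passed in every fit that left out 1 library. Omitting vector replicate 1, vector replicate 2 or Bhlhe22 replicate 2 left 1 gene that rose. Omitting Bhlhe22 replicate 1 gave 2 genes that fell, omitting Bhlhe22 replicate 3 gave 1, and omitting any of the rest gave 0. Calls over all genes also moved, from 2881 to 1348 without vector replicate 1 and to 4682 without Bhlhe22 replicate 1.

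Downstream, a list of genes known as ATF4 targets covers mainly amino acid supply, tRNA charging and redox balance. It also holds secreted factors and signalling genes such as Fgf21, Gdf15, Vegfa and Ddit4. Of its 36 tested genes, 26 rose, 0 fell and 10 did not pass the edgeR test. All 36 log2 fold changes were positive, so none was lower at an unadjusted p under 0.05 by edgeR, and 0 were called lower by DESeq2 or limma-voom. Their median log2 fold change was 0.55. The shares over all genes tested were 10.4% that rose and 9.28% that fell. Wars, which charges tRNA with tryptophan, had 111, 111 and 115 CPM in vector and 276, 269 and 278 CPM in Bhlhe22 libraries (log2 fold change 1.29, SE 0.061, edgeR adjusted p = 6.1e-05). Its groups were tight and far apart. Aldh1l2, a mitochondrial enzyme of folate metabolism, went from 160 ± 9.81 to 558 ± 58.7 CPM (SD, n = 3; log2 fold change 1.8, edgeR adjusted p = 0.00011). Fgf21, a secreted metabolic hormone whose printed window holds the same TTGCATCA as Atf3, had 23.9, 24.1 and 25.2 CPM in vector and 125, 93.0 and 88.6 CPM in Bhlhe22 libraries (log2 fold change 2.07, edgeR adjusted p = 0.00023). As for Ddit3, its Bhlhe22 libraries were more spread than its vector libraries and replicate 1 was the highest. Gpt2, which interconverts alanine and pyruvate, went from 253 ± 6.94 to 435 ± 22.2 CPM (SD, n = 3; log2 fold change 0.78, edgeR adjusted p = 0.00057). These 4 genes passed in all 16 other fits they were put through.

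Of 12 tested genes known to depend on CHOP, 8 rose, 1 fell and 3 did not pass, with a median log2 fold change of 0.86. The list was drawn up with Bcl2, which CHOP is known to lower, so its genes do not share 1 known direction. Among all genes tested 10.4% rose and 9.28% fell. Avil, Car6 and Tenm4 are known in mouse cells as genes downstream of CHOP, and Tenm4 rose by a log2 fold change of 1.07 (edgeR adjusted p = 0.031). Avil, an actin-binding protein gene, went from 1.40 ± 0.123 to 21.9 ± 2.04 CPM (SD, n = 3; log2 fold change 3.96, edgeR adjusted p = 3.7e-05). Car6, a carbonic anhydrase gene, was at 0.610, 0.194 and 0.234 CPM in vector and 43.4, 19.3 and 31.3 CPM in Bhlhe22 libraries. Every Bhlhe22 library was far above the vector libraries, with a log2 fold change of 6.52 and an edgeR adjusted p of 0.00028, although the vector level rests on 11, 4 and 5 counts. Ero1l, an oxidase of the endoplasmic reticulum, went from 289 ± 6.93 to 802 ± 97.0 CPM (SD, n = 3; log2 fold change 1.47, edgeR adjusted p = 0.00021). The gene that fell was Tnfrsf10b, the death receptor DR5, by 0.39 on the log2 scale (edgeR adjusted p = 0.028). It did not pass when vector replicate 1, 2 or 3 or Bhlhe22 replicate 2 was omitted. Wars and Stc2 stand on this list and on that of ATF4 targets, and Herpud1 on this list and on the one that follows. Further lists share genes as well, among them Atf6, Xbp1, Jdp2, Dnajc3, Fos and Jun, so the lists are not independent.

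The other arms of the unfolded protein response, which run through ATF6 and through IRE1 and XBP1, were counted alongside. Of 26 genes tested, 10 rose, 1 fell and 15 did not pass, with a median log2 fold change of 0.23. For all genes tested the shares were 10.4% that rose and 9.28% that fell. Dnajb9, a cochaperone, rose from 28.6 ± 1.51 to 63.4 ± 2.56 CPM (SD, n = 3; log2 fold change 1.15, edgeR adjusted p = 0.00024). Sel1l, Derl1 and Herpud1, which serve the export of misfolded proteins for degradation, rose by log2 fold changes of 1.18, 0.65 and 0.65 (edgeR adjusted p = 0.0020, 0.00073 and 0.0014). The chaperone gene Hspa5 had 813 CPM in vector and 1226 CPM in Bhlhe22 cells and did not pass (log2 fold change 0.59, edgeR adjusted p = 0.16). Sdf2l1 fell by 0.53 on the log2 scale (edgeR adjusted p = 0.032), and the chaperone genes Hsp90b1, Canx, Calr and Pdia4 did not pass, at 0.0018, -0.095, -0.16 and -0.076. The count that rose was 5 when any vector replicate and 6 when Bhlhe22 replicate 2 or 3 was omitted. The count that fell was 5 when Bhlhe22 replicate 1 and 0 when any other library was omitted. Dnajb9, Sel1l, Derl1 and Herpud1 passed in all of these fits. Over all genes 1520 rose with all libraries, 715 to 794 without a vector replicate, and 908 and 1182 without Bhlhe22 replicates 2 and 3. Those that fell numbered 1361 with all libraries and 2337 without Bhlhe22 replicate 1, so these counts moved as well.

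Among 37 tested bZIP factors outside the axis 8 rose and 1 fell, while 28 passed in neither direction, and the median log2 fold change was 0.12. Beside them stand 10.4% of all genes tested that rose and 9.28% that fell. Those that rose included Nfil3 (log2 fold change 0.70, edgeR adjusted p = 0.00064), Atf6 (0.77, edgeR adjusted p = 0.0038), Creb3l4 (1.65 from a low level of 0.716 ± 0.186 CPM, edgeR adjusted p = 0.0056) and Fosl1 (0.42, edgeR adjusted p = 0.0091). Cebpa fell by 0.72 on the log2 scale from 4.82 CPM (edgeR adjusted p = 0.032), the opposite direction to its relatives Cebpb and Cebpg. The AP-1 genes Fos, Jun, Junb and Jund did not pass, at log2 fold changes of 0.22, -0.10, 0.013 and 0.10. With vector replicate 1, 2 or 3 omitted 3, 4 and 5 factors rose, and with Bhlhe22 replicate 1 or 2 omitted 13 and 5 rose. Omitting Bhlhe22 replicate 3 gave 2 that fell, and omitting Bhlhe22 replicate 2 or any of the vector libraries gave 0. Calls over all genes were 1348 without vector replicate 1 and 4682 without Bhlhe22 replicate 1, against 2881 with all libraries.

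Atf3, Ppp1r15a and Cebpb also answer to serum and growth factors, so 22 tested immediate-early genes were counted, and 6 rose, 4 fell and 12 did not pass, with a median log2 fold change of 0.13. Across all genes tested 10.4% rose and 9.28% fell. Klf4 and Nr4a2 rose by log2 fold changes of 1.06 and 0.64 (edgeR adjusted p = 0.00043 and 0.0043). The matricellular genes Ccn2 and Ccn1 fell by 1.16 and 0.69 on the log2 scale (edgeR adjusted p = 0.00017 and 0.00081). These 4 passed in every fit that left out 1 library, whereas the count that rose was 2 when vector replicate 1, 3 when vector replicate 2 and 3 when Bhlhe22 replicate 2 was omitted. The count that fell was 2 in every such fit but the one that omitted Bhlhe22 replicate 1. That fit called 4682 of all genes in either direction, against 2881 with all libraries and 1348 without vector replicate 1.

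**Figure D4:**
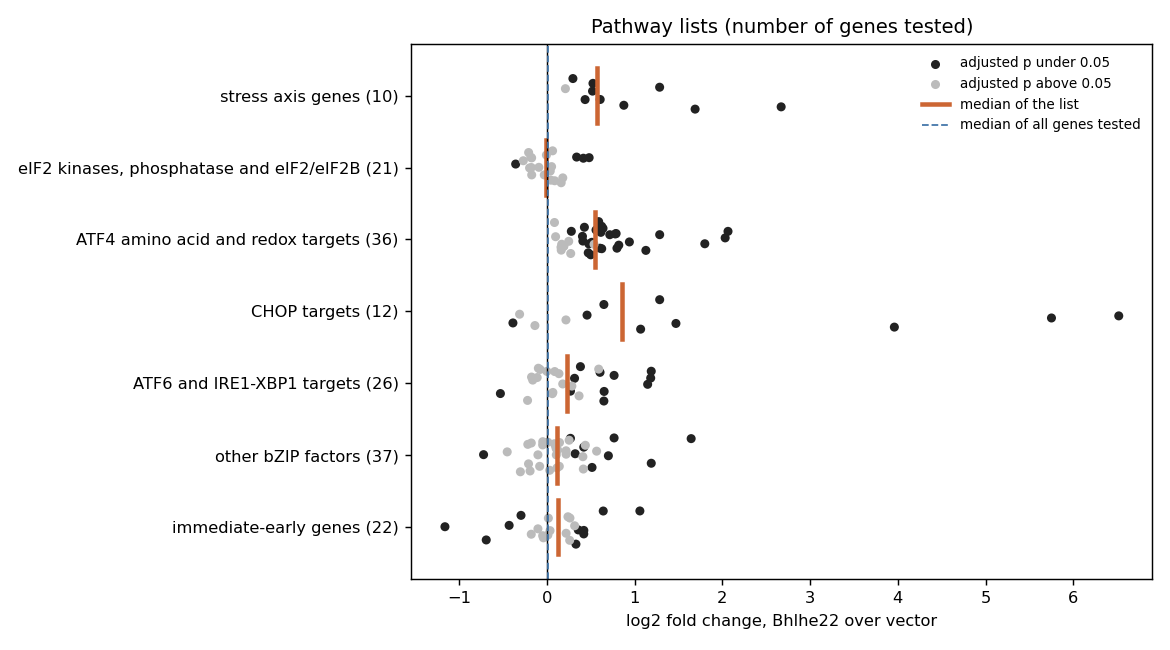
Log2 fold change (x axis) of every tested gene in the axis and in 6 related lists, with orange lines at each list's median and a dashed line at the median of all genes tested. The 36 ATF4 targets all lie above 0 around a median of 0.55, and the 21 eIF2 genes lie around -0.0037.

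For 4 of the genes the closest patterns over the 6 libraries were sought among 10125 protein-coding genes, by the root mean square distance between log2 CPM profiles centred on their own means. Phyhd1 (0.050), Hid1 (0.11) and Trim46 (0.11) lay nearest to Atf3. Arpc5l (0.064), Mettl7b (0.066) and Pycr1 (0.090) lay nearest to Ddit3, and Pycr1, the last enzyme of proline synthesis, is itself on the list of ATF4 targets. Nearest to Trib3 were Ifi27 (0.013), Pop5 (0.019) and Vps72 (0.030), and nearest to Chac1 were Ppp2r3d (0.019), Sirt6 (0.021) and Stk25 (0.022). Distances shrink with the size of the change, so they do not compare between Atf3 and Chac1.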

How the data were processed

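Total RNA of 6 RM-1 samples was sequenced, 3 libraries per group. The authors deposited a table with a raw count and an FPKM value for each gene and library, the FPKM derived from the count. Per the submitters' processing notes, CASAVA 1.8, HISAT2 2.1.0, StringTie 1.3.4b and edgeR were used on GRCm38, with no step named for each. In 10435 of 10435 genes with enough counts, count and FPKM gave 1 length in all libraries within 0.001%. That length equalled the summed distinct exons of GENCODE M21 within 1 base in 97.5% of 10426 genes and the merged exons in 12.9%.

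Counts were compared with edgeR 4.0.16 in R 4.3.3: TMM scaling, filterByExpr (minimum count 10, total 15), robust quasi-likelihood fits, with p-values adjusted by Benjamini-Hochberg over all 14663 genes tested at 0.05. Alternatives were DESeq2 1.42.0, limma 3.58.1 (voom, and log2 FPKM with pseudocounts of 1 and 0.1), scaling by library size, upper quartile or RLE, no filter, 1 CPM in 3 samples, a replicate block and fits without each library. The labels do not say whether replicates were separate cultures, so p-values rest on a spread that may be technical. CPM floors cover counting error only.

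The 10 genes and the lists were chosen with earlier results of these data known. From each list up to 4 called genes with the smallest adjusted p were named, as were the 3 nearest patterns for 4 of the 10 genes. Genes named beyond this (the eIF2 kinases, Ppp1r15b, Tenm4, Tnfrsf10b, Hspa5, Sdf2l1, Hsp90b1, Canx, Calr, Pdia4, Cebpa, Fos, Jun, Junb and Jund) were chosen after their values were seen. Promoter windows are RefSeq's on GRCm38.p6, and strands and exon overlaps are GENCODE M21's. Python 3.11.15, pandas 2.3.3, numpy 2.4.6 and matplotlib 3.10.9 made tables and plots. Some marker genes are not reported here.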

Additional observations from a re-analysis of the deposited data

How the results depend on the processing

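The count of genes of the axis that rose was 9 under the other scalings, filters and tools, 6 to 9 when 1 library was left out and 4 with both replicate 2 libraries left out, and the count that fell was 0 throughout. With both replicate 2 libraries left out, 246 of all 14745 genes tested were called higher, against 1520 of 14663 with all libraries. The log2 fold change of Atf4 turned to -0.024 without vector replicate 1 and to -0.16 without Bhlhe22 replicate 2, in a range of -0.16 to 0.56 over the 6 such fits, and the cause was not tested. Over all genes, deviations of same-numbered libraries from their group means correlated at 0.029, 0.021 and 0.016. Those of differently numbered libraries correlated at -0.078 to 0.063. A shared culture or day that affects part of the genes was not tested. With a replicate block 8 genes of the axis rose, Chac1 being lost (log2 fold change 0.30, edgeR adjusted p = 0.070), and over all genes 2079 were called in place of 2881. Under the block 0 eIF2 genes, 0 other bZIP factors and 2 immediate-early genes fell. The count of eIF2 genes that fell was 2 under RLE, upper quartile and library size scaling, a filter of 1 CPM, DESeq2 and both FPKM fits, and 0 with no filter.

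Over the 6 fits that left out 1 library, the eIF2 genes that rose numbered 1 to 4 and those that fell 0 to 2. ATF4 targets that rose numbered 22 to 32. CHOP targets that rose numbered 6 to 9 and those that fell 0 to 1. For the ATF6 and XBP1 list the counts were 5 to 12 and 0 to 5, for other bZIP factors 3 to 13 and 0 to 2, and for immediate-early genes 2 to 8 and 2 to 4. Over all genes 1348 to 4682 were called, the most without Bhlhe22 replicate 1. Those that rose numbered 715 to 2345 and those that fell 633 to 2337, so the list counts are to be read beside these. No scaling or filter moved the median log2 fold change of all genes by more than 0.1. Low counts limit the vector levels of Car6 and Creb3l4.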

Other observations

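Ratios of levels per kilobase of merged exons, chosen after the values were seen, describe how the balance between partners differed. Ppp1r15a stood below its constitutive counterpart Ppp1r15b in every vector library, at ratios of 0.289, 0.283 and 0.501 in replicates 1, 2 and 3, and above it in every Bhlhe22 library, at 2.13, 2.20 and 1.74. With the lengths behind the deposited FPKM values these ratios were 0.169, 0.166 and 0.293 in vector and 1.24, 1.28 and 1.02 in Bhlhe22 libraries, so that the excess over Ppp1r15b depended on the length used and in replicate 3 nearly vanished. The ratio of Ddit3 to its partner Cebpb was 0.223, 0.245 and 0.219 in vector and 0.551, 0.363 and 0.342 in Bhlhe22 libraries. That of Ddit3 to Cebpg was 1.46, 1.49 and 1.52 in vector and 2.78, 2.30 and 2.07 in Bhlhe22 libraries. For these 3 pairs the groups did not overlap. The ratio of Atf3 to Atf4 was 0.0541, 0.0289 and 0.0490 in vector and 0.162, 0.0762 and 0.136 in Bhlhe22 libraries, lowest in replicate 2 of both groups. That of Atf5 to Atf4 overlapped between the groups, at 0.287, 0.152 and 0.206 against 0.493, 0.203 and 0.352.

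The length behind the deposited FPKM values was 1.37 times the merged exon length in the median gene. For the 10 genes the factor ran from 1 for Cebpb and Chac1 through 1.73 for Atf4 and 1.79 for Atf5 to 2.03 for Nupr1.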
